A study of Homo sapiens with 9 samples.

Results

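The Kruppel-like factors examined here are 10 of the 18 genes with a KLF symbol among the 58051 genes counted in A431 cells. The members, KLF2, KLF3, KLF4, KLF5, KLF6, KLF7, KLF8, KLF9, KLF10 and KLF13, were taken from a named list that was chosen because KLF8 was strongly lower in p53 KO cells. The values that chose the list were thus the KLF8 counts of the p53 KO libraries against the other libraries. The members' differences in p53 KO cells are given as a description, and no p-value is printed for them. Where members that passed a threshold in p53 KO cells are named or counted, nothing is read from it. After the filter on low counts 9 of the 10 members remained, and KLF9 had 0 counts in all 9 libraries.

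Kruppel-like factors are transcription factors that bind CACCC boxes and GC-rich elements through a run of zinc fingers at the end of the protein. The fingers are alike in all members, as they are in the related SP factors, so members compete for the same sites. What differs is the rest of the protein: KLF3, KLF8 and KLF12 recruit the corepressor CTBP, KLF9, KLF10, KLF11, KLF13 and KLF16 recruit SIN3A, and KLF2, KLF4, KLF5, KLF6 and KLF7 mostly activate. In squamous epithelium KLF4 is known for its role in the differentiation of the upper layers and the skin barrier, and KLF5 for the dividing basal cells.

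A431 is an epidermoid carcinoma cell line that carries an endogenous mutant p53. RNA was measured in untargeted parental cells, in Ctrl cells, which carry an empty CRISPR vector and keep mutant p53, and in p53 KO cells, in which p53 was targeted by CRISPR, with 3 libraries for each group. According to the labels all cells were grown in DMEM with serum, as single colonies and then in multiwell plates. The sources used here do not state whether a group is 1 clone or whether its libraries came from separate cultures, so that the spread between libraries may be technical and the effect of p53 cannot be told apart from that of a clone. Levels are given as CPM (counts scaled to a common library size by TMM, such that a library sums to about 1e+06), and log2 fold changes with their standard errors (SE) come from edgeR's quasi-likelihood fit to all 9 libraries.

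Libraries held between 19783778 and 29840452 counts on genes. Ctrl replicate 1 stood apart from its group. Its counts differed from those of the other Ctrl libraries by a chi-square of 39.4 and 51.8 per gene, where the other pairs within groups gave 5.35 to 16.4. In this library genes above the upper quartile of exon length lay at a median of -0.16 on the log2 scale from their group mean and genes below the lower quartile at 0.16. Of the 9 members tested, 8 were below the Ctrl mean there, and for the members values without this library are therefore given where a sign turned or a log2 fold change moved by over 1.5 times. Of the 7 squamous markers 6 passed the filter, and KRT14 was nearly absent. Their summed level was 10100 to 12400 CPM in Ctrl, 15700 to 18700 CPM in parental and 14500 to 15200 CPM in p53 KO cells, most of it EGFR. From parental to Ctrl cells EGFR and KRT17 fell, KRT5 rose, and CDH1, TP63 and ITGB4 did not pass the test. The part of these markers in the results was not tested. Markers of fibroblasts, leukocytes and endothelial cells each summed to at most 4.42 CPM in any library, with 2 of 5, 3 of 5 and 1 of 4 of them at 0.

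KLF8 (ENSG00000102349), a CTBP-binding repressor that is linked to invasion and to loss of E-cadherin in carcinoma cells, lies on the X chromosome at chrX:56232356-56291531 (GRCh38, plus strand). RefSeq (GRCh38.p14) lists 4 windows upstream of KLF8 starts. The 250 bases before the start at which the gene annotation begins, and those before a start further upstream, are given since KLF8 had the largest differences of the members. The KLF4 and KLF13 windows follow, as KLF4 RNA was higher in p53 KO and KLF13 RNA in Ctrl cells. The KLF13 window ends where the annotated gene begins, whereas the KLF4 window lies before a RefSeq start inside the annotated gene. Capitals mark CACCC boxes, searched as CACCC on either strand (GGGTG on the printed strand).
KLF8 chrX:56232106-56232355, plus strand: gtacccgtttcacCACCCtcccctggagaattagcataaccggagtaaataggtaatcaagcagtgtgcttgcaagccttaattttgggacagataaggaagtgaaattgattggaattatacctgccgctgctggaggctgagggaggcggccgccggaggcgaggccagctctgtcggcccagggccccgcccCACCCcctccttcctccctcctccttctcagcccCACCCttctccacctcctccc
KLF8 chrX:55908035-55908284, plus strand: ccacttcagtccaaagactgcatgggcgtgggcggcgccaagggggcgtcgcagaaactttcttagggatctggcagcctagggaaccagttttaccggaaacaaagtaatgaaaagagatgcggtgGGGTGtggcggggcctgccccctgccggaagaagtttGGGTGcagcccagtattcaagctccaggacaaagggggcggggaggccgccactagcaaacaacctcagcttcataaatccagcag
KLF4 chr9:107489770-107490019, minus strand: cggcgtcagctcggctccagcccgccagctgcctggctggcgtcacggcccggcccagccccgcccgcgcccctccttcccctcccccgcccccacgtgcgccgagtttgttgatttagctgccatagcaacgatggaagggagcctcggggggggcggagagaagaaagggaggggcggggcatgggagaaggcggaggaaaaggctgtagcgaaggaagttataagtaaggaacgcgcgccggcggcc
KLF13 chr15:31326585-31326834, plus strand: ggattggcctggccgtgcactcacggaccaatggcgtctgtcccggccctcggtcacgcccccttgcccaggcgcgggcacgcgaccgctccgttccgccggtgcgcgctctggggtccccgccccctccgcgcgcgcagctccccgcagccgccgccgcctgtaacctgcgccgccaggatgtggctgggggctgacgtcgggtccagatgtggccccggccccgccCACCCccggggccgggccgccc
The window at the annotated KLF8 start held 3 CACCC boxes and that further upstream 2. The KLF8 windows that are not printed held fewer, 0 at chrX:56232908-56233157 and 1 at chrX:55907873-55908122. The KLF13 window held 1 and the KLF4 window none. GC boxes (GGGCGG or CCGCCC) numbered 1 and 2 in the printed KLF8 windows, 0 and 1 in those not printed, 3 in the KLF13 window and 4 in the KLF4 window. Over the 35116 windows of all genes 54.7% held at least 1 CACCC box, 8.56% held 3 or more and 42.6% held a GC box. Of the 15 windows of the members 8 held a CACCC box. A match is a description of these letters, and counts per gene do not tell which start was used.

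KLF8 RNA was low in A431 cells and differed most among the members. In parental cells KLF8 had 54, 47 and 49 counts, which is 2.07, 1.81 and 2.26 CPM. In Ctrl cells it had 71, 145 and 152 counts, or 3.62, 5.09 and 5.80 CPM. In p53 KO cells 13, 10 and 3 counts were left, or 0.436, 0.380 and 0.149 CPM. The groups did not overlap: every p53 KO library was below every parental library and every parental library was below every Ctrl library, with Ctrl replicate 1 the lowest of its group. p53 KO cells had 15.7% of the parental and 6.65% of the Ctrl level, with log2 fold changes of -2.57 (SE 0.32) and -3.83 (SE 0.29). Between the controls KLF8 was higher in Ctrl than in parental cells, at 237% of the parental level and a log2 fold change of 1.26 (SE 0.21). Without Ctrl replicate 1 these values were -2.57, -3.98 and 1.42. In bulk RNA fewer cells that express a gene and less RNA per cell cannot be told apart.

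**Figure D1:**
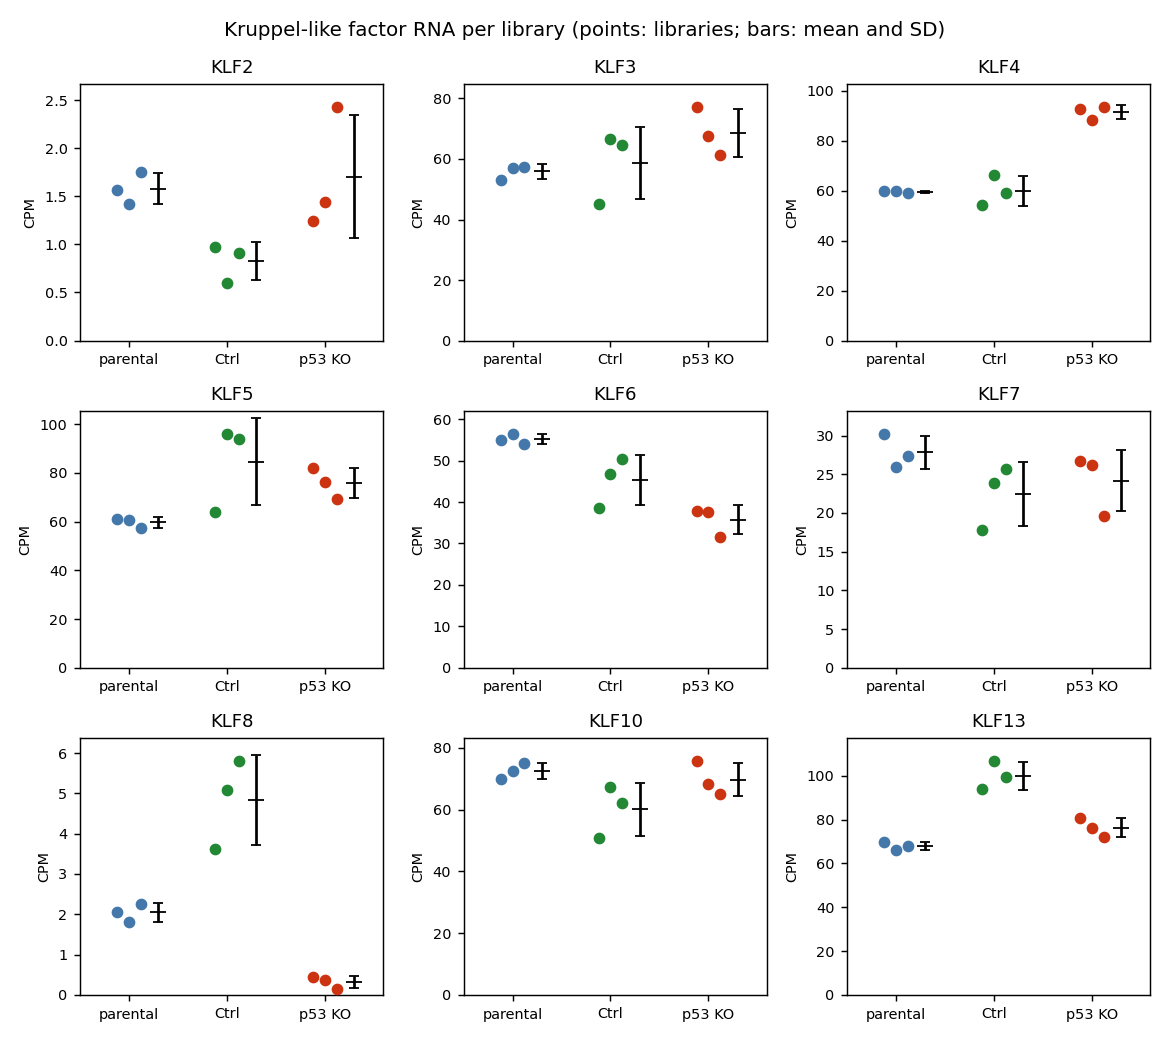
Levels of the 9 detected Kruppel-like factors in CPM (vertical axes, from 0) in parental, Ctrl and p53 KO cells. Points are libraries and bars show the mean and SD of 3 libraries; the 3 groups are separate for KLF8, and the p53 KO libraries lie above both controls for KLF4 and below both for KLF6.

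KLF3, the other CTBP-binding repressor of the list (chr4:38664197-38701517), had 8.26 CPM per kb of exon in parental cells, where KLF8 had 0.161. Its levels were 53.1, 57.2 and 57.5 CPM in parental, 45.1, 66.6 and 64.7 CPM in Ctrl and 77.2, 67.6 and 61.4 CPM in p53 KO cells. The p53 KO libraries were above all parental libraries but overlapped with Ctrl, in which replicate 1 was the lowest of all 9. The log2 fold changes were 0.30 (SE 0.14) against parental and 0.22 (SE 0.14) against Ctrl, and the latter was 0.07 without Ctrl replicate 1. Ctrl and parental cells overlapped and did not pass the test (log2 fold change 0.08, SE 0.14, edgeR adjusted p = 0.708, and 0.23 without Ctrl replicate 1, adjusted p = 0.0703).

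Among the activators, KLF4 (chr9:107484852-107490482) differed between p53 KO cells and both controls, which had nearly equal levels. KLF4 was at 59.8, 59.9 and 59.1 CPM in parental and 54.5, 66.2 and 59.2 CPM in Ctrl cells. It was at 92.8, 88.3 and 93.6 CPM in p53 KO cells, above all 6 control libraries. The mean was 91.5 ± 2.85 CPM (SD, n = 3), 154% of the parental and 153% of the Ctrl mean, with log2 fold changes of 0.62 (SE 0.08) and 0.61 (SE 0.08). Between Ctrl and parental cells the log2 fold change was 0.01 (SE 0.08, edgeR adjusted p = 0.937), and 0.07 without Ctrl replicate 1.

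KLF5 (chr13:73054976-73077541), the basal-cell activator, separated the parental cells from the rest. Its levels were 61.1, 60.9 and 57.3 CPM in parental, 63.9, 95.9 and 93.9 CPM in Ctrl and 81.9, 76.4 and 69.4 CPM in p53 KO cells. All Ctrl and all p53 KO libraries were above all parental libraries, while Ctrl and p53 KO overlapped, since Ctrl replicate 1 was far below the other Ctrl libraries. KLF5 was higher in Ctrl than in parental cells (log2 fold change 0.50, SE 0.14, edgeR adjusted p = 0.026), and without Ctrl replicate 1 by 0.67 (adjusted p = 1.77e-05). This call was lost in 6 of 15 alternatives, among them each fit that left out a parental library. In p53 KO cells the log2 fold change was 0.35 (SE 0.14) against parental and -0.16 (SE 0.14) against Ctrl cells, the latter -0.32 without Ctrl replicate 1.

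KLF6 (chr10:3775996-3785281), an activator known as a growth suppressor, was lowest in p53 KO cells. It was at 55.0, 56.4 and 54.0 CPM in parental, 38.6, 46.7 and 50.4 CPM in Ctrl and 37.8, 37.6 and 31.7 CPM in p53 KO cells. The p53 KO libraries sat under all 6 control libraries, by a narrow margin to Ctrl replicate 1, and the Ctrl libraries were below the parental ones. The log2 fold changes in p53 KO cells were -0.63 (SE 0.11) against parental and -0.34 (SE 0.11) against Ctrl cells. That between Ctrl and parental cells, -0.28 (SE 0.11), did not pass the test (edgeR adjusted p = 0.079), and it was -0.19 without Ctrl replicate 1.

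KLF2 (chr19:16324826-16328685), an activator best known from endothelium and resting T cells, was scarce. It was at 1.57, 1.42 and 1.75 CPM in parental, 0.969, 0.597 and 0.915 CPM in Ctrl and 1.24, 1.45 and 2.43 CPM in p53 KO cells, from 17 to 49 counts in a library. The Ctrl libraries were below all others, and parental and p53 KO cells overlapped. KLF2 was lower in Ctrl than in parental cells (log2 fold change -0.95, SE 0.30, edgeR adjusted p = 0.0438), a call that was lost in 5 of 15 alternatives, among them each fit that left out a parental library. In p53 KO cells the log2 fold change was 0.07 (SE 0.26) against parental and 1.02 (SE 0.29) against Ctrl cells.

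KLF7 (chr2:207074137-207173856), an activator studied mainly in neurons, was at 30.2, 26.0 and 27.4 CPM in parental, 17.8, 23.9 and 25.7 CPM in Ctrl and 26.7, 26.2 and 19.6 CPM in p53 KO cells. The p53 KO libraries overlapped with both controls, and the Ctrl libraries were below the parental ones. Ctrl cells differed from parental cells by -0.31 on the log2 scale (SE 0.15), which did not pass the test (edgeR adjusted p = 0.156). In p53 KO cells the log2 fold change was -0.20 (SE 0.15) against parental and 0.11 (SE 0.15) against Ctrl cells. Without Ctrl replicate 1 the sign against Ctrl cells turned (-0.03), and the difference between Ctrl and parental cells was -0.17.

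Of the SIN3A-binding repressors, KLF13 (chr15:31326835-31435665) was higher in Ctrl cells than in either other group. It was at 69.6, 66.2 and 67.9 CPM in parental, 94.0, 107 and 99.5 CPM in Ctrl and 80.6, 76.1 and 72.0 CPM in p53 KO cells. No group overlapped with another, and the order was parental, p53 KO, Ctrl. The rise from parental to Ctrl cells was 0.56 on the log2 scale (SE 0.08, edgeR adjusted p = 0.000595), and it passed the test in all 15 alternatives. In p53 KO cells the log2 fold change was 0.17 (SE 0.08) against parental and -0.39 (SE 0.07) against Ctrl cells.

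KLF10, a repressor induced early by TGF-beta, was at 70.0, 72.5 and 75.2 CPM in parental, 50.7, 67.4 and 62.1 CPM in Ctrl and 75.6, 68.2 and 65.1 CPM in p53 KO cells. Its p53 KO libraries overlapped with both controls, with log2 fold changes of -0.06 (SE 0.10) against parental and 0.21 (SE 0.10) against Ctrl cells. The Ctrl libraries were below the parental ones without passing the test (log2 fold change -0.27, SE 0.10, edgeR adjusted p = 0.0875). Without Ctrl replicate 1 KLF10 differed by 0.11 between p53 KO and Ctrl cells and by -0.16 between Ctrl and parental cells. For KLF9, a repressor induced by glucocorticoids, the floor of 3 counts amounts to 0.101 to 0.152 CPM in a library, so that a level below this was not detectable at this depth.

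Read together, the members moved in both directions in each comparison. In p53 KO against parental cells 1 member was higher at an adjusted p of at most 0.05 (KLF4, where 9.77% of all genes tested were) and 2 were lower (KLF6 and KLF8, against 8.36% of all genes). In p53 KO against Ctrl cells 2 were higher (KLF2 and KLF4, against 15% of all genes) and 3 were lower (KLF6, KLF8 and KLF13, against 14.2%). Since the list was chosen on p53 KO cells, nothing is read from these counts. In Ctrl against parental cells 3 were higher (KLF5, KLF8 and KLF13, against 10.6%) and 1 was lower (KLF2, against 9.69%). KLF8 shares these libraries with the choice of the list, so nothing is read from its call or from counts that include it. With a log2 fold change past 1.5 in either direction as well, KLF8 was the single member left in the comparisons of p53 KO with parental (1.95% of all genes) and with Ctrl cells (3.29%), and 0 members were left in Ctrl against parental cells (1.94%), where 4 had passed the adjusted p alone in edgeR and 4 in DESeq2. The median log2 fold change of the 9 members was 0.07, 0.11 and 0.01 in the 3 comparisons, beside 0.01, 0.01 and 0.00 over all 14513 genes. The comparisons share libraries and are not independent.

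**Figure D2:**
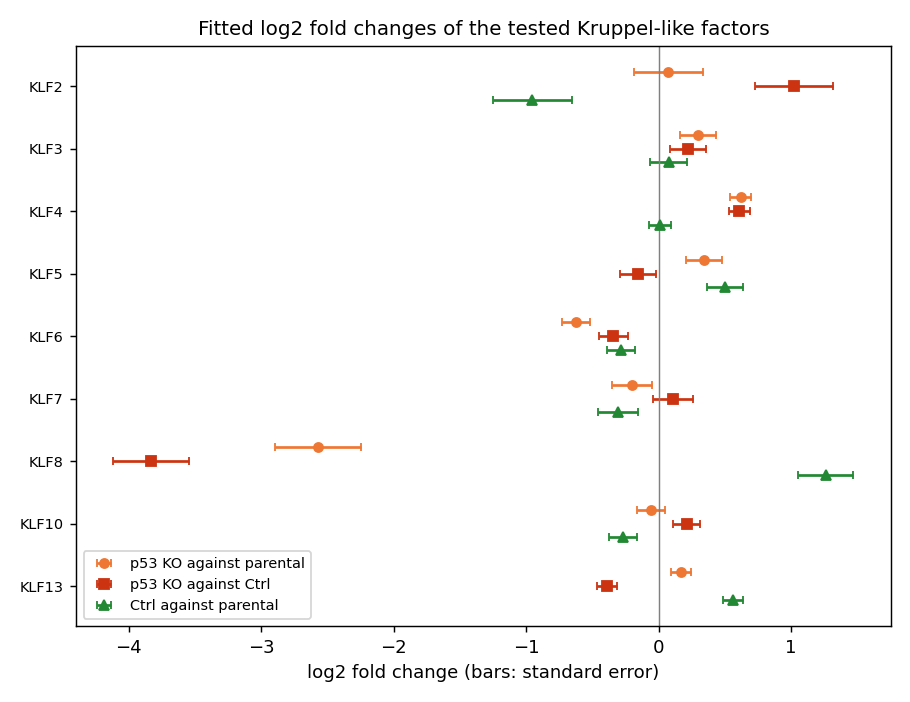
Log2 fold changes (horizontal axis) of the 9 tested Kruppel-like factors for p53 KO cells set against each control, and for Ctrl set against parental cells. Points are fitted values and bars their standard errors; KLF8 lies at -2.57, -3.83 and 1.26, and the other members within about 1 unit of 0.

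Levels of different genes were compared per length, as CPM per kb of exon. In parental cells KLF10 was highest (19.0 ± 0.675 CPM per kb, SD, n = 3), followed by KLF4 (16.3 ± 0.125) and KLF5 (16.2 ± 0.581), which did not differ beyond their spread. KLF6 (8.98 ± 0.197), KLF3 (8.26 ± 0.361) and KLF13 (7.20 ± 0.183) came next, then KLF7 (2.90 ± 0.223). KLF2 (0.561 ± 0.0586) and KLF8 (0.161 ± 0.0178) were at the bottom. In p53 KO cells KLF4 was first at 25.0 ± 0.779 CPM per kb, ahead of KLF5 at 20.6 ± 1.71 and KLF10 at 18.2 ± 1.41. KLF6 (5.82 ± 0.571) was there below KLF3 (10.2 ± 1.17) and KLF13 (8.08 ± 0.455). By group means this held in Ctrl cells as well, with KLF6 at 7.365 ± 0.980, KLF3 at 8.68 ± 1.75 and KLF13 at 10.6 ± 0.674. In Ctrl cells KLF5 led with 23.0 ± 4.88 CPM per kb, a mean pulled down by replicate 1, ahead of KLF4 (16.4 ± 1.61) and KLF10 (15.7 ± 2.24), which overlapped. There KLF8 (0.380 ± 0.0872) was above KLF2 (0.293 ± 0.0712), the reverse of the parental order, but the libraries overlapped, and in Ctrl replicate 1 KLF8 (0.284) was below KLF2 (0.344). KLF8 has the longest exon sequence of the members (12729 bases), which lowers its level per length if shorter transcripts are the ones made.

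**Figure D3:**
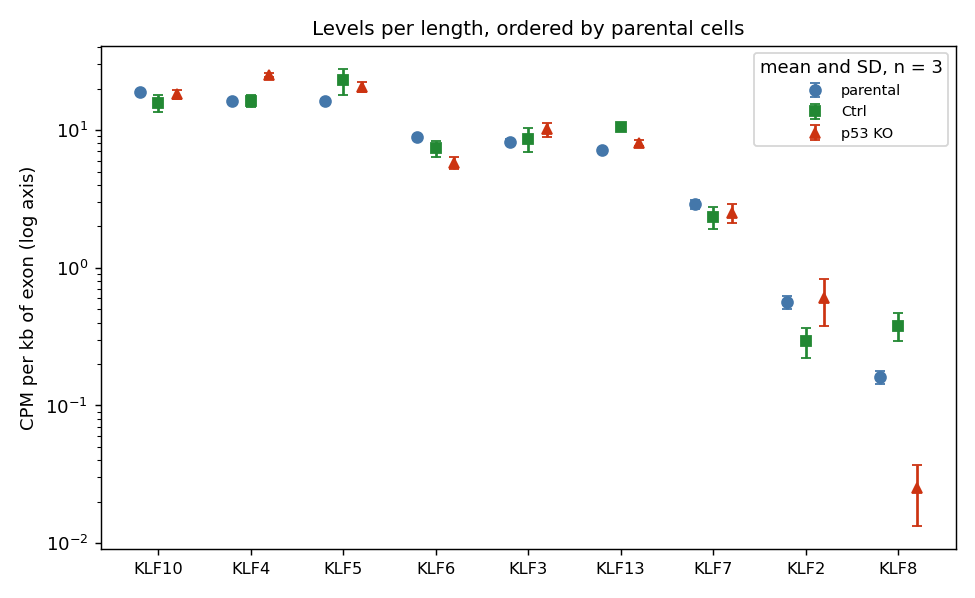
Levels of the 9 detected Kruppel-like factors in CPM per kb of exon (vertical log axis), ordered by the parental mean. Symbols are means of 3 libraries and bars the SD; KLF10, KLF4 and KLF5 lie between 15.7 and 25.0 in all groups, and KLF8 spans from 0.0253 in p53 KO to 0.380 in Ctrl cells.

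Genes with a pattern like that of KLF8 were ranked by Pearson's r of log2 CPM over the 9 libraries, a description that rests largely on the group means. The 5 highest were PI4KA (r = 0.990), COPB2 (0.990), SEC62 (0.987), BTC (0.987) and ERMP1 (0.986). Among them BTC, which encodes the EGFR ligand betacellulin, had differences nearest in size, with 2.91 CPM in parental, 5.08 CPM in Ctrl and 0.999 CPM in p53 KO cells. PI4KA and COPB2, a lipid kinase and a coat protein of Golgi vesicles, had the same order of groups in a narrower range, with log2 fold changes of -0.45 and -0.46 in p53 KO against parental cells. Of the other members KLF6 (r = 0.691) and KLF13 (r = 0.539) were most like KLF8, and KLF4 (r = -0.890) and KLF2 (r = -0.723) least.

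The genes around KLF8 on the X chromosome were all nearer to 0 than KLF8 in p53 KO against either control, and between the controls IPO7P1 (-1.69, with group means of at most 0.484 CPM) was the exception. Within 5 Mb of its start 26 other genes were tested, with a median log2 fold change of -0.06 when p53 KO was compared with parental cells, -0.08 when it was compared with Ctrl cells and -0.02 between the controls. Of these, 1 was higher and 2 were lower at an adjusted p of at most 0.05 in p53 KO against parental (9.77% and 8.36% of all genes). In p53 KO against Ctrl cells 2 were higher and 4 lower (15% and 14.2% of all genes). UBQLN2, the nearest tested gene at 0.331 Mb, had 65.7, 65.4 and 65.0 CPM in parental, Ctrl and p53 KO cells. RRAGB, the nearest on the other side, had log2 fold changes of 0.16 and 0.39 in p53 KO against parental and Ctrl cells (edgeR adjusted p = 0.422 and 0.0399). For APEX2 these values were -0.01 and -0.07 (adjusted p = 0.97 and 0.621), and for FAM104B 0.02 and -0.40 (adjusted p = 0.91 and 0.018). LINC01420 had 0.54 and -0.12 (adjusted p = 0.0105 and 0.476). SPIN3 was lower in both comparisons, at -0.43 and -0.36 (adjusted p = 0.0323 and 0.0448).

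**Figure D4:**
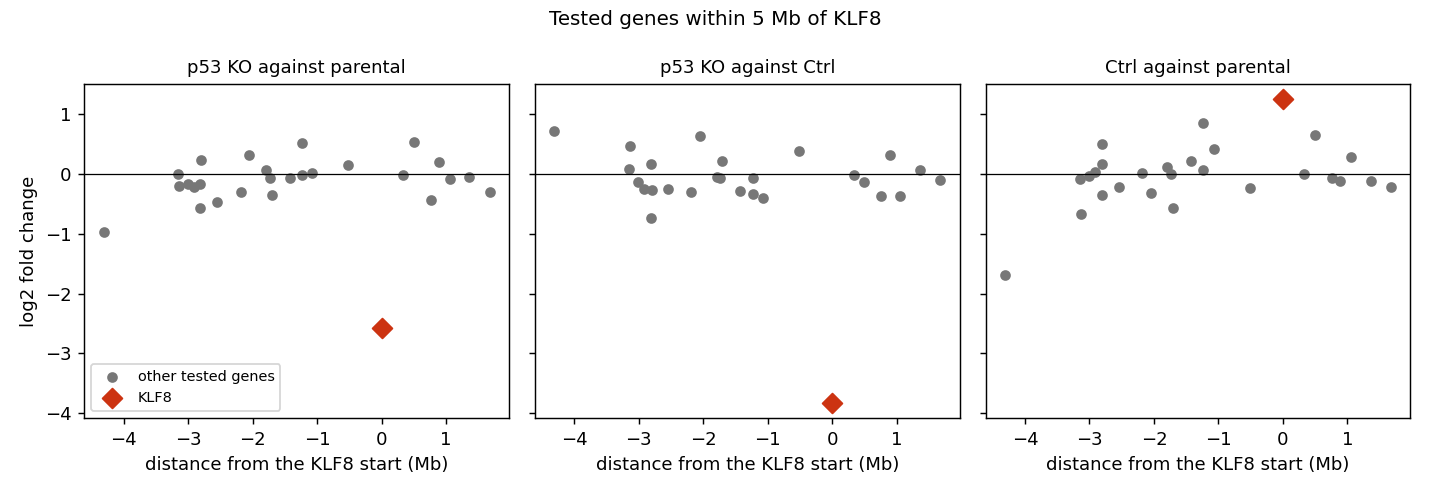
Log2 fold changes (vertical axis) of the 26 tested genes within 5 Mb of KLF8 against their distance from its start in Mb, with KLF8 as a diamond at 0, in the 3 comparisons. In both comparisons of p53 KO cells KLF8 lies below every neighbour, and in Ctrl against parental cells it lies above them.

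Of the 8 KLF genes outside the list 3 passed the filter. KLF12, the third CTBP-binding repressor, fell in p53 KO cells, from 12.8 CPM in parental and 10.6 CPM in Ctrl to 6.42 CPM. Its log2 fold changes were -0.98 (SE 0.18, edgeR adjusted p = 0.0036) and -0.73 (SE 0.18, adjusted p = 0.0117), and Ctrl and parental cells did not pass (-0.25, adjusted p = 0.304, and -0.07 without Ctrl replicate 1). The SIN3A-binding KLF11 and KLF16 passed in no comparison at an adjusted p in edgeR, with log2 fold changes between -0.35 and 0.33. The median of the 3 was -0.15 and -0.30 in p53 KO against parental and Ctrl cells. KLF1, KLF14, KLF15, KLF17 and KLF18 did not pass the filter.

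Of the 9 SP factors, which bind the same GC-rich sites, 6 passed the filter. SP2 fell in p53 KO cells by 0.34 on the log2 scale against parental (SE 0.07, edgeR adjusted p = 0.0081) and by 0.30 against Ctrl (SE 0.07, adjusted p = 0.0107). SP6, known from tooth and skin development, was at 17.4 CPM in parental, 36.4 CPM in Ctrl and 17.4 CPM in p53 KO cells. It rose from parental to Ctrl cells by 1.06 (SE 0.10, adjusted p = 7.39e-05), so that its fall in p53 KO cells held against Ctrl (adjusted p = 2.85e-05) and not against parental cells (adjusted p = 0.978). SP1, SP3, SP4 and SP5 passed in no comparison, although without Ctrl replicate 1 the number lower in p53 KO cells was 2 in place of 1 against parental and 3 in place of 2 against Ctrl. With all libraries 8.36% of all genes tested were lower against parental and 14.2% against Ctrl cells. The median of the 6 was -0.14, -0.20 and -0.07 in the 3 comparisons, the last of these 0.03 without Ctrl replicate 1. SP8 had 8, 9 and 6 counts in the p53 KO and 0 in the 6 control libraries. Its p53 KO mean of 0.303 CPM was 2.46-fold the mean floor of 3 counts over the parental libraries. It was 2.44-fold the mean floor over the Ctrl libraries. SP7, SP8 and SP9 did not pass the filter.

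The repressors work through corepressors and histone deacetylases. Of 11 KLF cofactors 1 was higher and 0 were lower in p53 KO against parental cells (9.77% and 8.36% of all genes tested). The same counts were found against Ctrl cells (15% and 14.2% of all genes). In Ctrl against parental cells 0 passed (10.6% of all genes were higher and 9.69% lower). The medians of the cofactors were -0.04, -0.07 and 0.04. At an unadjusted p under 0.05 in edgeR, 3 were lower in p53 KO against parental cells (1 at an adjusted p in DESeq2), 0 were lower against Ctrl cells and 0 were higher and 1 lower in Ctrl against parental cells (0 in DESeq2 for each). The gene that passed was CTBP2, the corepressor bound by KLF3 and KLF8, with 103 CPM in parental, 110 CPM in Ctrl and 136 CPM in p53 KO cells. Its log2 fold changes were 0.40 (SE 0.07, edgeR adjusted p = 0.00176) against parental and 0.31 (SE 0.07, adjusted p = 0.00452) against Ctrl cells. Without Ctrl replicate 1 there were also 3 cofactors lower in each comparison of p53 KO cells.

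Of 10 genes for the turnover of KLF proteins, FBXO32, which encodes a ubiquitin ligase subunit that targets KLF4, fell in p53 KO cells by 1.38 on the log2 scale against Ctrl (SE 0.08, edgeR adjusted p = 7.5e-07), from 45.8 to 17.6 CPM. Against parental cells, at 37.7 CPM, its adjusted p was 8.76e-06, and in Ctrl against parental cells it was higher by 0.28 (adjusted p = 0.0247), a call that was lost in 7 of 15 alternatives. In the fit used throughout FBXO32 was the single gene of the list that passed against parental cells (9.77% of all genes were higher and 8.36% lower). Against Ctrl cells SMURF1 was higher as well (15% higher and 14.2% lower). Without Ctrl replicate 1, 1 gene of the list was higher and 2 were lower in each comparison of p53 KO cells. In DESeq2, with no filter beyond 1 count, with only the 2 groups compared and without Ctrl replicate 3, 2 were lower against parental cells. The medians of the list were -0.03, 0.08 and -0.13 in the 3 comparisons. The ERK5-MEF2 pathway induces KLF2 and KLF4 in endothelium. Of 7 of its genes 0 were higher and 1 was lower in p53 KO against parental cells (9.77% and 8.36% of all genes tested). In p53 KO against Ctrl cells these were 0 and 2 (15% and 14.2%), and in Ctrl against parental cells 1 and 2 (10.6% and 9.69%). Their medians were -0.17, 0.05 (-0.01 without Ctrl replicate 1) and -0.29. The 2 counts of 0 were also 0 at an unadjusted p under 0.05 in edgeR and in DESeq2, and this held for the counts of 0 in the lists of KLF8 partners and epidermal factors. Each of the 6 calls in this list was lost in 7 to 11 alternatives. For MAPK7, which encodes ERK5, the log2 fold change in Ctrl against parental cells was -0.29 (adjusted p = 0.0482), and the call was lost in 11 of 15, among them the fit without Ctrl replicate 1 (adjusted p = 0.0875).

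Of the genes described as regulators or targets of KLF8, 6 were tested. Against parental cells 1 was higher and 4 were lower in p53 KO cells (9.77% and 8.36% of all genes tested). Against Ctrl cells these were 1 and 3 (15% and 14.2% of all genes). In Ctrl against parental cells 0 were higher and 1 lower (10.6% and 9.69% of all genes). The 4 became 2 without parental replicate 2 or 3 or any p53 KO library, and 1 without parental replicate 1. The list's median was -0.29, -0.23 and 0.00. PTK2, which encodes focal adhesion kinase and acts upstream of KLF8, was at 199 and 200 CPM in parental and Ctrl cells and at 132 CPM in p53 KO cells (log2 fold change -0.59, SE 0.08, edgeR adjusted p = 0.00045, and -0.61, adjusted p = 0.000175). CDH1, the E-cadherin gene that KLF8 is known to repress, fell as well, by 0.32 (SE 0.09, adjusted p = 0.0245) and 0.33 (adjusted p = 0.014). MMP14, a matrix protease induced by KLF8, fell by 0.26 (adjusted p = 0.0447) and 0.36 (adjusted p = 0.0059). Against parental cells the call was lost in 6 of 15 alternatives for CDH1 and in 9 of 15 for MMP14, and against Ctrl cells in 2 for CDH1. EPSTI1, a described KLF8 target that is also induced by interferon, rose from 2.39 CPM in parental and 1.34 CPM in Ctrl to 5.82 CPM in p53 KO cells (log2 fold changes 1.28, SE 0.16, adjusted p = 0.000388, and 2.13, adjusted p = 1.04e-05), and it fell from parental to Ctrl cells by 0.85 (adjusted p = 0.0138). CCND1, a cyclin gene induced by KLF8, fell against parental cells by 0.39 (adjusted p = 0.0107, lost in 2 of 15 alternatives). Against Ctrl cells CCND1 did not pass (log2 fold change -0.129), but it did without Ctrl replicate 1 (-0.218, adjusted p = 0.0163). The number lower against Ctrl cells was then 4 in place of 3. SRC passed in no comparison, and MMP9 and CXCR4 did not pass the filter.

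Among transcription factors of the epidermis 11 of 13 were tested. In Ctrl against parental cells 8 rose and 0 fell (10.6% and 9.69% of all genes tested), with a median of 0.69. In p53 KO against Ctrl cells 0 rose and 6 fell (15% and 14.2% of all genes), with a median of -0.42. Against parental cells 3 rose and 1 fell in p53 KO cells (9.77% and 8.36% of all genes), with a median of 0.13. GRHL3, a barrier regulator, had the order of groups of KLF8, with 14.6 CPM in parental, 26.2 CPM in Ctrl and 3.53 CPM in p53 KO cells. Its log2 fold changes were -2.04 (SE 0.14, edgeR adjusted p = 6.29e-06), -2.88 (SE 0.14, adjusted p = 1.78e-07) and 0.85 (SE 0.12, adjusted p = 0.000792). ZNF750, which acts upstream of KLF4 in keratinocytes, rose from parental to Ctrl cells by 1.29 (adjusted p = 0.00364), where KLF4 differed by 0.01. In p53 KO against Ctrl cells ZNF750 was lower (log2 fold change -1.785, adjusted p = 0.000292), where KLF4 was at 0.61. Against parental cells ZNF750 did not pass (-0.492, adjusted p = 0.252). CEBPA rose from parental to Ctrl cells by 1.22 (adjusted p = 0.000176).

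**Figure D5:**
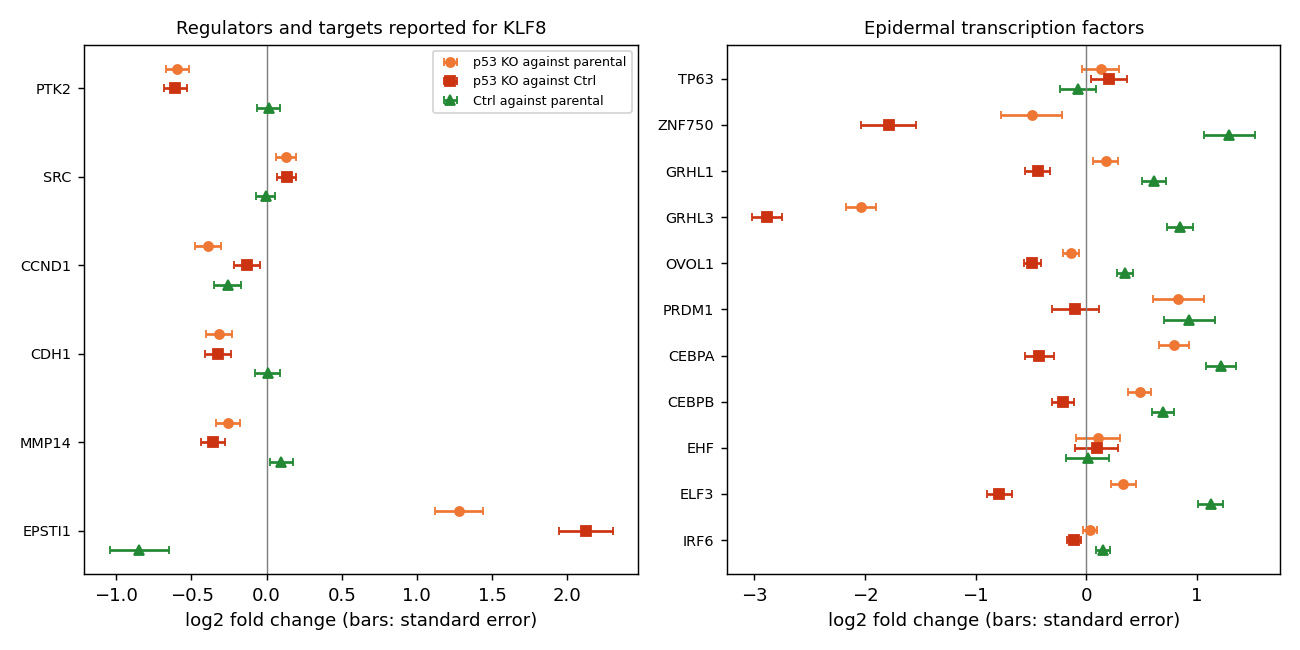
Log2 fold changes with standard errors (horizontal axes) of the 6 tested genes described as regulators or targets of KLF8 (left) and of the 11 tested epidermal transcription factors (right) in the 3 comparisons. EPSTI1 lies above 0 and PTK2, CDH1 and MMP14 lie below 0 in both comparisons of p53 KO cells, and GRHL3 lies at -2.04 and -2.88.

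KLF2, KLF4, KLF6 and KLF10 belong to the genes that respond early to growth factors and stress, so other immediate-early genes were read beside them. Of 12 tested, 2 were higher and 1 was lower in p53 KO against parental cells (9.77% and 8.36% of all genes tested). Against Ctrl cells these were 4 and 4 (15% and 14.2%), and in Ctrl against parental cells 2 and 3 (10.6% and 9.69%). The medians of the 12 were -0.04, -0.11 and 0.24. The call of FOS, lower against Ctrl, was lost in 11 of 15 alternatives, and that of IER2, higher in Ctrl than in parental cells, in 7 of 15. The number higher in Ctrl against parental cells was 1 with the replicate block and 4 without Ctrl replicate 1. IER3 was at 40.5 CPM in parental, 16.9 CPM in Ctrl and 78.1 CPM in p53 KO cells, and ATF3 was at 4.36, 3.97 and 10.3 CPM. Both rose in p53 KO cells against both controls (edgeR adjusted p of at most 0.000179 in each). EGR1 fell in both, from 109 and 133 CPM to 46.8 CPM (adjusted p = 2.05e-05 and 1.77e-06). JUN and IER3 fell from parental to Ctrl cells (adjusted p = 5.53e-05 and 3.08e-05). KLF4 was higher and KLF6 lower in p53 KO cells against both controls.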

How the data were processed

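RNA of 9 A431 samples was sequenced from strand-specific poly(A) libraries. Per the labels and the study's methods, the authors used STAR 2.5.1b with GRCh38 and featureCounts with Ensembl release 85, and deposited raw counts of 58051 genes. The strand setting of the counting is not given in the sources used here, so that antisense and overlapping genes cannot be told apart from counts alone. All 9 columns were matched to samples by name, and no sample was left out. Genes were filtered with filterByExpr (minimum count 10), which left 14513, normalized by TMM and fitted in edgeR 4.0.16 (R 4.3.3) with 1 mean per group. Its quasi-likelihood test was adjusted over these genes by the Benjamini-Hochberg method. The study used DESeq2, here an alternative (version 1.42.0). SE is the size of the log2 fold change over the root of F, and log2 CPM used a prior count of 2. Exon lengths are from GENCODE 44 and promoter windows from RefSeq, where 8 of 10 members had an entry. Floors cover counting error only, and standard errors include the spread between libraries. The fit was tested on simulated counts, and figures were drawn with matplotlib 3.10.9.

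The members and the lists were chosen with earlier results of these data known. Named genes were all KLF and SP genes, up to 4 genes per list that passed in 1 direction against both controls, up to 2 that passed in Ctrl against parental cells, the 5 genes most correlated with KLF8, up to 3 tested neighbours of KLF8 on each side and the described partners of KLF8. SMURF1, IPO7P1, FOS and IER2 were named after their values were seen. Other settings tried were DESeq2, edgeR with size factors from DESeq2, a filter at 1 count, a minimum of 10 counts in each library, a replicate block, fits of the compared groups alone, a log2 fold change past 1.5, and leaving out each library.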

Additional observations from a re-analysis of the deposited data

Results flagged for a closer look

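KLF8 was picked out because its differences from parental cells had opposite signs in the other groups. It was lower in p53 KO cells (log2 fold change -2.57) and higher in Ctrl cells (1.26), with each p53 KO library below and each Ctrl library above all parental libraries. The difference between these was not tested, since KLF8 was chosen for its level in p53 KO cells. Groups of 3 libraries are too small for a test of outlying values.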

How the results depend on the processing

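Of the 402 log2 fold changes of members under the alternatives, 397 kept their direction, 24 no longer passed an adjusted p of at most 0.05 and 9 newly passed it. The members that passed in p53 KO against parental cells numbered 3, but 5 with no filter beyond 1 count, 5 with only the 2 groups compared and 1 past a log2 fold change of 1.5. Leaving out each library gave 3 to 6, with 6 without Ctrl replicate 1, where KLF3, KLF5 and KLF13 passed too. In p53 KO against Ctrl cells 5 became 3 with only the 2 groups compared, 1 past 1.5, and 3 to 6 with a library left out (3 without p53 KO replicate 3 or Ctrl replicate 2). In Ctrl against parental cells 4 became 0 past 1.5 and 2 to 5 with a library left out (2 without any parental library or without Ctrl replicate 2). The cause of these moves was not tested. The share of all genes that passed is given only for the fit used throughout, so nothing about the members is read from these counts. The log2 fold change of KLF8 ranged from -2.85 to -2.30, from -4.11 to -3.56 and from 1.12 to 1.42, and a minimum of 10 counts in every library dropped it. KLF6 against Ctrl cells lost its call in 10 of 15 alternatives. With the replicate block 3, 4 and 3 members passed. The replicate numbers did not pair the libraries: correlations of deviations between same-numbered libraries were -0.35 to 0.041, and 1 of 18 comparisons was highest with its own number. In the list of KLF8 partners the replicate block left 2 of 4 genes lower in p53 KO against parental cells, and it left 0 of the 6 calls in the ERK5-MEF2 list. Depth limits KLF8 in p53 KO cells, at 3 to 13 counts, and KLF2.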

Other observations

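Annotated neighbours and copies of the members had few reads. KLF3-AS1 had 0 to 3 counts in a library and KLF7-IT1 0 to 4, and the KLF pseudogenes were at 0 but for KLF3P1 with 1 count in a single library. p53 KO replicate 3 also deviated with gene length, with a median of -0.08 on the log2 scale for genes above the upper quartile of exon length and 0.09 for those below the lower quartile, and 7 of the 9 members were below their p53 KO mean there. Among the windows of 5 Mb around the members, that of KLF6 held 37 other tested genes, of which 6 were higher and 11 lower in p53 KO against parental cells and 4 and 15 in p53 KO against Ctrl cells, with medians of -0.18 and -0.30. Around KLF4 0 of 30 were higher and 4 lower in p53 KO against parental cells, with a median of -0.08. Against Ctrl cells these were 5 and 3, with a median of 0.10. Around KLF10, of 38 genes 1 was higher and 7 lower against parental (median -0.202), and 1 and 8 against Ctrl cells (median -0.165). Over all genes tested 9.77% were higher and 8.36% lower against parental, and 15% and 14.2% against Ctrl cells.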
